A study of Drosophila melanogaster with 6 samples.

Results

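The 3 genes described here act in the handling of damaged DNA in Drosophila: p53, mus308 and Rrp1. They were selected by symbol from 582 features listed in either of 2 deposited tables, and each was listed in 1 table. Rrp1 stood among the 90 rows for dKDM4A RNAi, which were 1.19% of the features tested there, and mus308 and p53 stood among the 535 rows for HP1a RNAi, 6.46% of those tested. Both tables held only rows with an adjusted p below 0.05, so presence in a table is itself the result of a test on these libraries.

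Cells repair damaged DNA by several routes, chosen by the kind of lesion. Rrp1 encodes an apurinic/apyrimidinic endonuclease of base excision repair, the route for altered or lost bases. mus308 encodes DNA polymerase theta, which joins broken ends through short matching sequences when other routes do not. p53 encodes a transcription factor that, after damage, switches on genes of apoptosis and repair.

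The cells were S2, a Drosophila line of embryonic origin, kept for 5 days with double-stranded RNA, and polyadenylated RNA was sequenced. There were 6 libraries in 3 groups of 2: GFP RNAi as the control, dKDM4A RNAi and HP1a RNAi. dKDM4A is a histone demethylase gene, and HP1a is a heterochromatin protein that binds methylated histone H3. The labels name no other allele or agent. They do not say whether paired libraries derive from different cultures, and the p-values may therefore reflect technical spread alone.

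The targeted genes checked the labels. Kdm4A had 842 and 843 normalized counts in the GFP libraries and 2141 and 2675 in those labelled dKDM4A RNAi, so it was higher and not lower there, against its label. Directions in that comparison are given under this label, and the reason for the high Kdm4A value was not tested. The HP1a gene, Su(var)205, was at 60.1% of its GFP level in HP1a RNAi, the direction its label gives. Normalized counts are reads per gene divided by a size factor per library, set separately in each table. The median listed row held between 745 and 3362 reads per library, and total depth is unknown.

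Rrp1 was lower in the libraries labelled dKDM4A RNAi. The gene (FBgn0004584) lies on chromosome 2L from 2969773 to 2972508, on the minus strand; the positions of all 3 genes equal those of the BDGP6 (dm6) annotation. Its normalized counts were 10056 and 9269 in the GFP libraries, and 6573 and 6687 in the libraries labelled dKDM4A RNAi. Both GFP values lay above both others, with a gap of 2583 between the groups, against a range of 787 within GFP RNAi and 114 within the other group. Such a separation is shared by all listed rows: the groups did not overlap in 100% of the 90 rows here, nor in 100% of the 535 rows for HP1a RNAi.

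The mean of Rrp1 fell from 9663 ± 556 to 6630 ± 80.4 normalized counts (SD, n = 2 each), which left 68.6% of the control level, a 1.46-fold decrease. The authors' deposited table gives a log2 fold change of -0.53 with a standard error of 0.0808 and an adjusted p of 4.6e-08. Limma on log2(normalized count + 1), fitted to all 90 rows with Benjamini-Hochberg adjustment, gave a difference of -0.54 (95% interval -0.70 to -0.39, adjusted p = 0.00145). Limma called 100% of the 90 rows, which had been chosen on the same libraries, so its p adds no independent evidence. With 2 libraries a group, the smallest two-sided p of an exact permutation test is 0.333.

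Among features tested for the libraries labelled dKDM4A RNAi, 1.19% were listed, 0.876% as higher and 0.319% as lower. Kdm4A was 1 of 66 higher rows and Rrp1 was 1 of 24 lower rows, with the eighth largest decrease among them by the deposited log2 fold change. That Rrp1 and Kdm4A moved in opposite directions does not depend on the label. If the GFP and dKDM4A labels were exchanged, Rrp1 would be 1.46-fold higher, 1 of 24 higher rows (0.319%). Kdm4A would then be among 66 lower rows (0.876%). The comparison with HP1a RNAi uses the same GFP libraries, so its control would become dKDM4A RNAi. Kdm4A was not listed for HP1a RNAi. Whether the labels were exchanged was not tested. The median decrease of those 24 rows was 1.42-fold, close to that of Rrp1. By adjusted p, Rrp1 ranked 9 among the 90 rows. Counting error was small for this gene: 12669 reads in GFP replicate 1 and at least 5874 reads in each other library gave 95% exact Poisson half-widths of 1.75% to 2.57%. Such intervals cover counting error only.

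The 2 genes listed for HP1a RNAi were both higher there. mus308 (FBgn0002905, symbol PolQ in the annotation) lies on chromosome 3R from 12705523 to 12712299, on the minus strand. Its normalized counts were 2123 and 2295 in the GFP libraries and 3308 and 3108 in HP1a RNAi. The groups did not overlap, as in every listed row, and the gap of 812 exceeded the range of 172 within GFP RNAi and of 200.0 within HP1a RNAi.

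On average mus308 rose from 2209 ± 122 in GFP RNAi to 3208 ± 141 in HP1a RNAi (normalized counts ± SD, n = 2 each), a 1.45-fold increase. Single HP1a libraries were between 1.35-fold and 1.56-fold above single GFP libraries. In the authors' deposited table the log2 fold change was 0.53 with a standard error of 0.0944 and an adjusted p of 1.85e-06. Limma, fitted to all 535 rows, gave a difference of 0.54 (95% interval 0.29 to 0.79, adjusted p = 0.00849). With any 1 of the 4 libraries left out, the difference lay between 0.48 and 0.59. Limma called 98.1% of the 535 rows, which had been chosen on the same libraries. Its p therefore adds no independent evidence.

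p53 had the smallest fold of the 3 genes. The gene (FBgn0039044) lies on chromosome 3R from 23049657 to 23054082, on the minus strand. Its normalized counts were 953 and 931 in the GFP libraries and 1257 and 1163 in HP1a RNAi. Both HP1a values were higher than both GFP values, again as every listed row was separated, with a gap of 209.6 between the groups, against ranges of 22.5 within GFP RNAi and 93.5 within HP1a RNAi.

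On average p53 rose from 942 ± 15.9 in GFP RNAi to 1209.9 ± 66.1 in HP1a RNAi (normalized counts ± SD, n = 2 each), a 1.28-fold increase. The authors' deposited table lists a log2 fold change of 0.35 with a standard error of 0.101 and an adjusted p of 0.0126, which misses a threshold of 0.01, passed by 4.15% of all features tested. Limma over the 535 rows gave a difference of 0.36 (95% interval 0.12 to 0.60, adjusted p = 0.0186). As for mus308, this p adds no independent evidence, since the rows were chosen on the same libraries. The limma call was lost without GFP RNAi replicate 1 (adjusted p = 0.0529), without GFP RNAi replicate 2 (0.0665) and without HP1a RNAi replicate 1 (0.0885). Without HP1a RNAi replicate 2 it was kept, at an adjusted p of 0.0487.

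**Figure D1:**
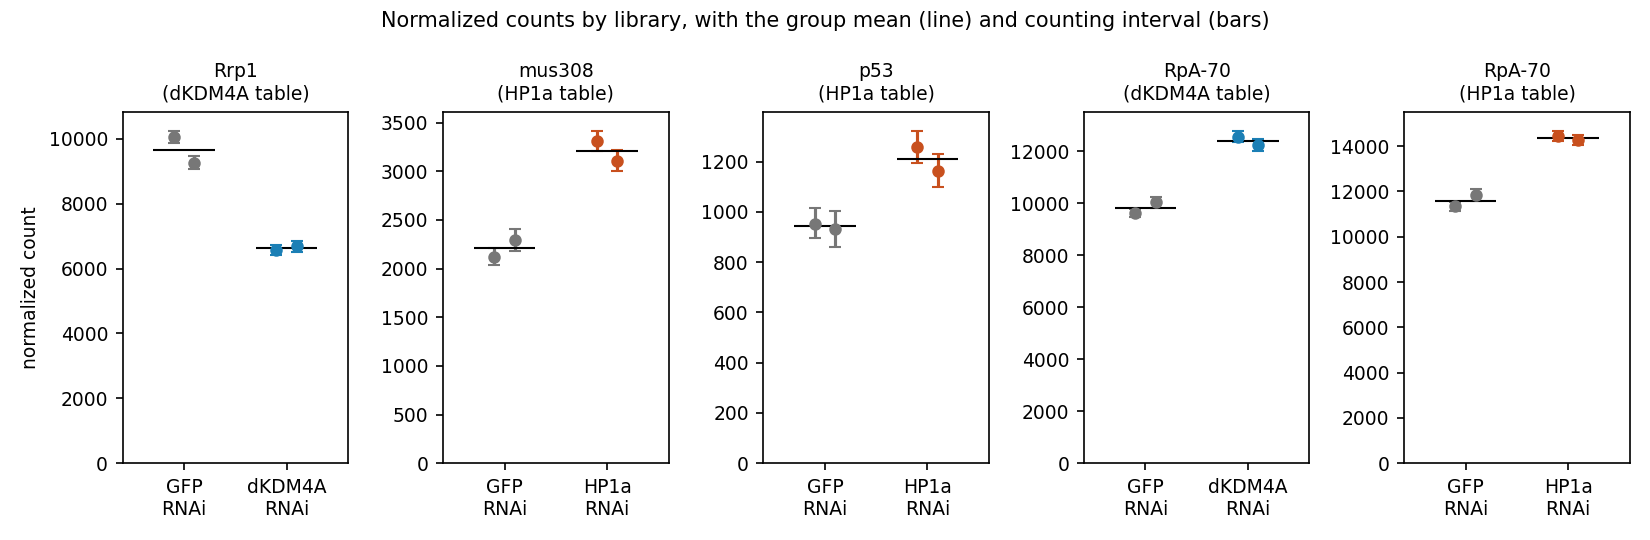
Normalized counts (vertical axes, from 0) in each library for Rrp1, mus308 and p53, and for RpA-70 in both tables. Points are libraries, lines are group means and bars are 95% exact Poisson intervals of counting error; in every panel the 2 GFP libraries and the 2 RNAi libraries do not overlap, as in 100% of listed rows, and p53, with 668 to 1558 reads, has the widest bars for its size.

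Reads for p53 were fewer than for the other members, from 668 in GFP replicate 2 to 1558 in HP1a replicate 1. The counting half-widths were 5.00% to 7.66%, compared with 3.07% to 4.86% for mus308. Over the 535 rows, replicate libraries of the HP1a table differed by more than counting error. Chi-square divided by its degrees of freedom was 29.0 in GFP RNAi and 34.7 in HP1a RNAi. These values pool all rows and are not those of p53 or mus308. For both genes, the counting intervals of replicate libraries overlapped within GFP RNAi and within HP1a RNAi. The half-widths cover counting error only and may understate the spread. In these bulk samples, a change in the share of cells that express a gene and a change in RNA per cell cannot be told apart.

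Among features tested for HP1a RNAi, 6.46% were listed, 4.18% as higher and 2.28% as lower. mus308 and p53 both belonged to the 346 higher rows. The median increase of those rows was 1.65-fold, above both genes. By the deposited log2 fold change mus308 ranked 216 and p53 ranked 300 among the 346 increases. By adjusted p, mus308 ranked 113 and p53 ranked 364 among the 535 rows. Limma called 525 of the 535 rows, or 98.1%, and 334 without HP1a RNAi replicate 2.

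**Figure D2:**
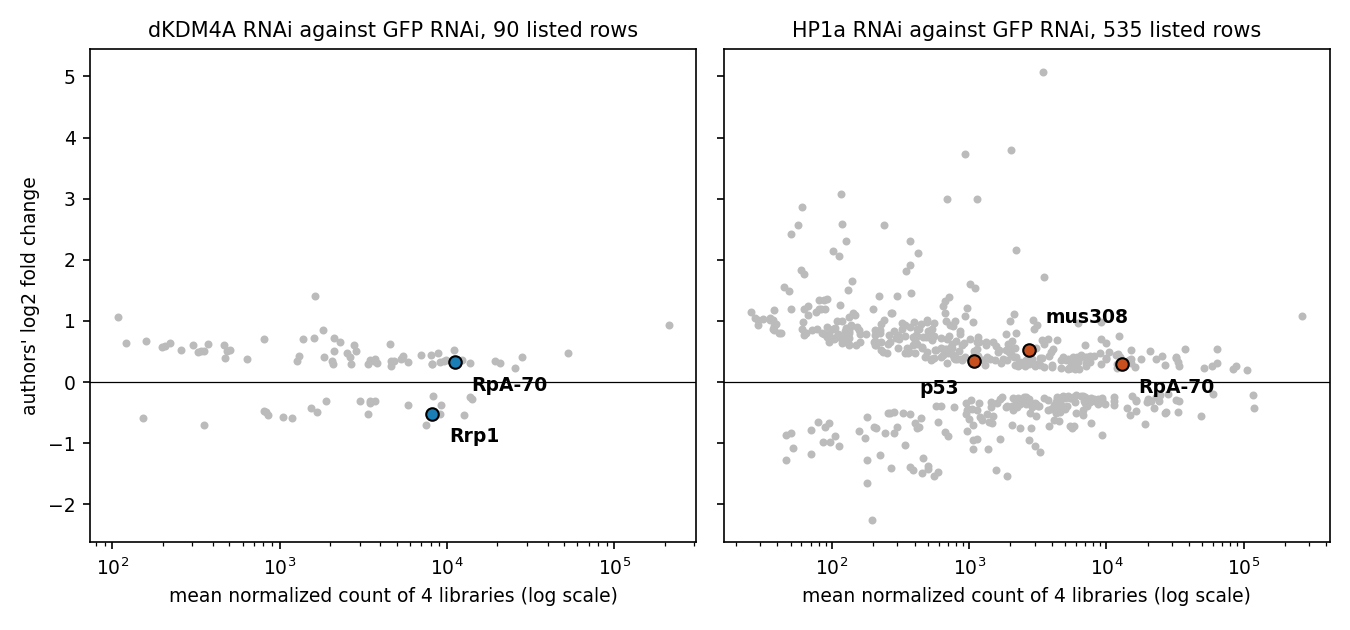
The authors' log2 fold change (vertical axis) against the mean normalized count of 4 libraries (horizontal axis, log scale) for the 90 rows of the libraries labelled dKDM4A RNAi (left) and the 535 rows for HP1a RNAi (right). Each grey point is a listed row; Rrp1 lies at -0.53 among the decreases, while mus308 (0.53), p53 (0.35) and RpA-70 (0.30 on the right, 0.33 on the left) lie in the lower part of the increases.

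Within each library of the HP1a table, mus308 was set against p53. The quotient of their normalized counts was 2.23 and 2.47 in GFP RNAi and 2.63 and 2.67 in HP1a RNAi. The HP1a quotients were higher than both GFP quotients. No quotients from 2 libraries a group could give a lower two-sided p than 0.333 in an exact permutation test, so whether mus308 changed more than p53 was not tested. The quotient is not a level per length, since mus308 has 6420 bp of exons and p53 has 2136 bp.

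Control levels could be compared per length, because the 43 features listed in both tables had equal GFP reads in both once size factors were undone. In GFP replicate 1, Rrp1 had 4966 reads per kilobase of exon, p53 had 477 and mus308 had 353. In GFP replicate 2 the values were 3077, 313 and 257 reads per kilobase. The order was the same in both libraries. Rrp1 was 10.4 and 9.84 times as abundant per length as p53, and 14.1 times (replicate 1) and 12.0 times (replicate 2) as abundant as mus308.

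p53 and mus308 were neighbours in that order, and their counting intervals did not overlap in either control library. In GFP replicate 1 they ran from 448 to 507 reads per kilobase for p53 and from 339 to 368 for mus308. In GFP replicate 2 they ran from 289 to 337 for p53 and from 244 to 269 for mus308. These levels take all annotated exons as the counted length, and whether reads covered that length evenly was not tested. The intervals cover counting error only, so the order of p53 and mus308 is not settled by them.

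Other annotated genes cross p53 and mus308, and no source at hand states whether reads were counted by strand. An antisense RNA, asRNA:CR46089, shares 812 bp of exon with p53, or 38.0% of the exonic length of p53. It overlaps 3 of the 4 annotated p53 transcripts, by 294 bp to 812 bp, and leaves the shortest, of 1324 bp, free. The gustatory receptor gene Gr94a lies inside the p53 span on the other strand and shares 0 bp of exon with it. If strand was ignored, part of the p53 reads cannot be told apart from reads of the antisense RNA. Neither of these opposite-strand genes was listed in a table.

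For mus308, the opposite-strand gene CG12279 overlaps the 3' end by 253 bp, which is 3.94% of the exonic length of mus308. Rrp1 has no annotated gene across it. Its nearest neighbours are Ts, 134 bp away on the same strand, and gammaTub23C, a gamma-tubulin gene 382 bp away on the other strand. None of the immediate neighbours of the 3 genes was listed in either table: Ts and gammaTub23C beside Rrp1, Past1 and Men beside mus308, and CG17121 and Ctns beside p53.

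**Figure D3:**
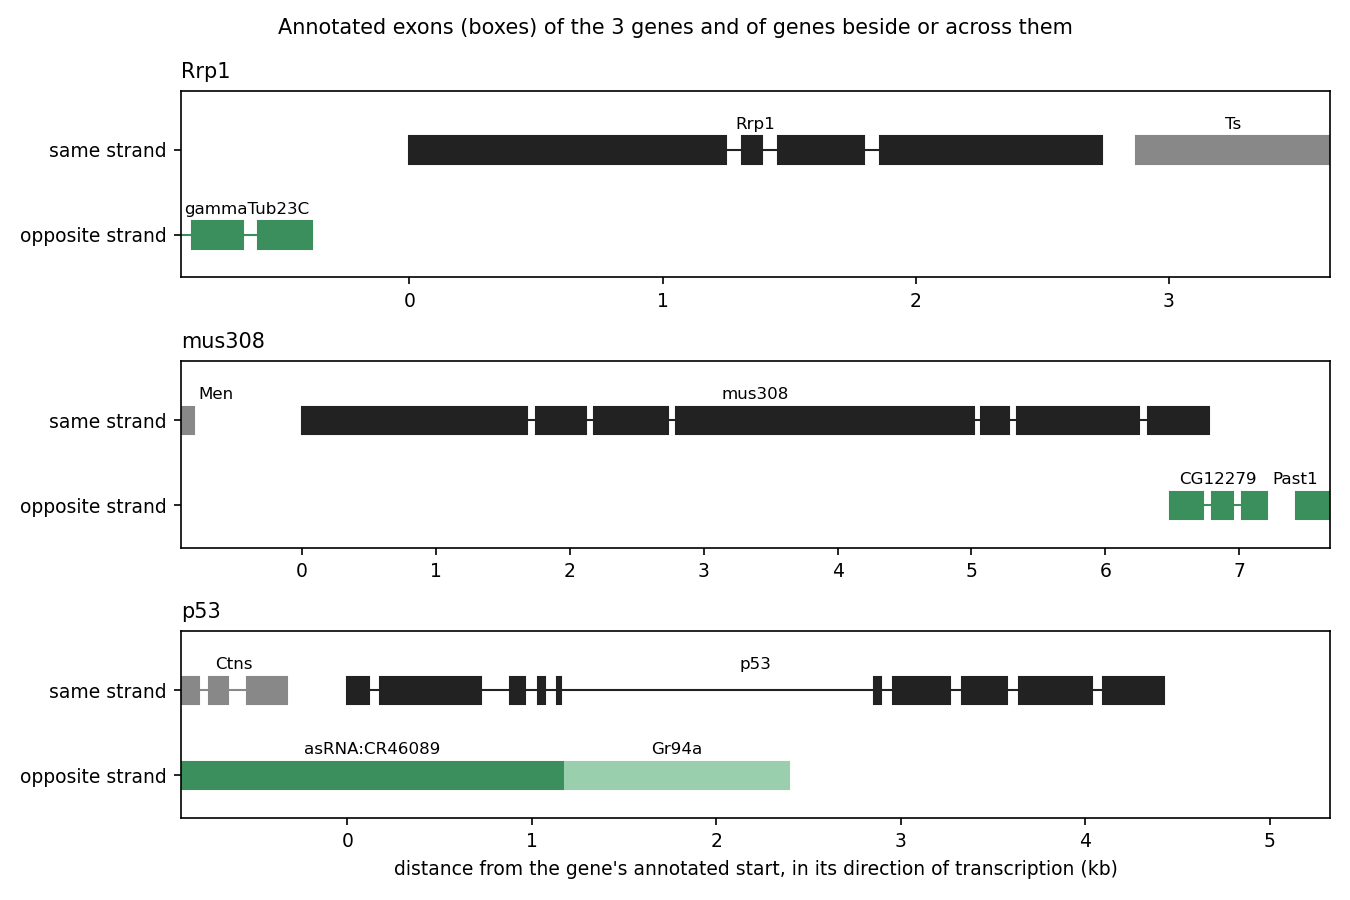
Annotated exons (boxes) of Rrp1, mus308 and p53 and of genes across or beside them, by distance in kb from each gene's annotated start in its own direction (horizontal axis), with the gene's own strand above and the other strand below. asRNA:CR46089 covers the first exons of p53 on the other strand (812 bp shared), CG12279 covers 253 bp at the end of mus308, and no gene crosses Rrp1.

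The nearest listed genes lay far from each member. For Rrp1 they were daw, 157 kb away, and Thor, 506 kb away, and both were higher in the libraries labelled dKDM4A RNAi while Rrp1 was lower. For mus308 they were grsm, 238 kb away, and GstD7, 326 kb away, both higher in HP1a RNAi as mus308 was. For p53 they were CG16710 at 628 kb, which was lower, and the pigmentation gene e at 1812 kb, which was higher.

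Of the other genes of these pathways, few were listed. The 11 lists of repair, checkpoint, replication and p53 genes held 107 genes, all matched to the annotation. In the libraries labelled dKDM4A RNAi, 2 of the 107 were listed, Rrp1 as lower and RpA-70 as higher, or 1.87% against 1.19% of all features tested. In HP1a RNAi 3 of the 107 were listed, mus308, p53 and RpA-70, all higher, or 2.80% against 6.46% of all features tested. The median deposited log2 fold change of those 3 was 0.35, beside 0.66 for the 346 higher rows and 0.40 for all 535 rows. In the other table the deposited log2 fold changes were -0.53 for Rrp1 and 0.33 for RpA-70, beside medians of 0.48 in size for the 24 lower rows and 0.43 for the 66 higher rows. The 3 members are counted among the 107 and were selected from listed rows. Apart from them only RpA-70 was listed, so these shares cannot show whether repair genes were listed more or less often than other features. How many of the 107 were tested is unknown.

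By pathway, base excision repair had 1 of 12 members listed for the libraries labelled dKDM4A RNAi, Rrp1 itself, and 0 for HP1a RNAi. End joining had 1 of 5 listed for HP1a RNAi, mus308 itself, with the Ku genes and DNA ligase 4 unlisted. The list of p53 and apoptosis had 1 of 14 listed for HP1a RNAi, p53 itself. The p53 targets rpr, W (hid), skl and Corp were not listed, so a change of theirs did not pass or they were not tested. Homologous recombination had 1 of 21 listed in each table, RpA-70.

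The remaining 7 lists had 0 members in either table. They were nucleotide excision repair (8 genes), mismatch repair (5), translesion synthesis (5), crosslink repair (5), the damage checkpoint (11), the SMC5/6 complex with heterochromatic break repair (5), and DNA polymerases with replication genes (16). Only genes on these lists were looked up, so repair genes outside them may be among the listed rows. A gene that is absent from a table is not shown to be unchanged.

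RpA-70 encodes the large subunit of the replication protein A complex that coats single-stranded DNA. Of the genes on these lists, RpA-70 was the 1 listed in both tables, as higher in each. In the table of the libraries labelled dKDM4A RNAi its normalized counts were 9628 and 10039 in GFP RNAi and 12554 and 12237 in the RNAi libraries. In the HP1a table they were 11350 and 11848 in GFP RNAi and 14439.8 and 14266 in HP1a RNAi. In each table both RNAi values were above both GFP values, as in every listed row with a higher level.

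The increase of RpA-70 was 1.26-fold in the libraries labelled dKDM4A RNAi, with a limma difference of 0.33 (95% interval 0.20 to 0.47, adjusted p = 0.00251). In HP1a RNAi it was 1.24-fold, with a limma difference of 0.31 (95% interval 0.08 to 0.53, adjusted p = 0.0231). The second call was lost without each of the 4 libraries in turn (limma adjusted p between 0.0595 and 0.0937), and the first was kept each time. In the authors' deposited table the adjusted p-values were 0.000591 and 0.00049. Both comparisons use the same 2 GFP libraries, so they are not independent. The limma fits used rows chosen on these same libraries and add no independent evidence.

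Each member was also fitted under 9 limma alternatives, all on rows already chosen on these libraries. Dropping the filter changed no value of any member. A mean of at least 100 changed none for Rrp1. Such settings could not change a call, so the numbers of calls kept are no measure of support. Rrp1 kept its call under all 9, with differences from -0.60 to -0.48. mus308 also kept its call under all 9, from 0.48 to 0.59. p53 kept it under 6 of 9, with differences from 0.30 to 0.42. The tables differ in this respect for all rows: with single libraries left out, limma called 84 to 90 of the 90 rows in the table that holds Rrp1, and 334 to 383 of the 535 rows in the table that holds mus308 and p53. Rrp1 is therefore not shown to be steadier than p53.

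**Figure D4:**
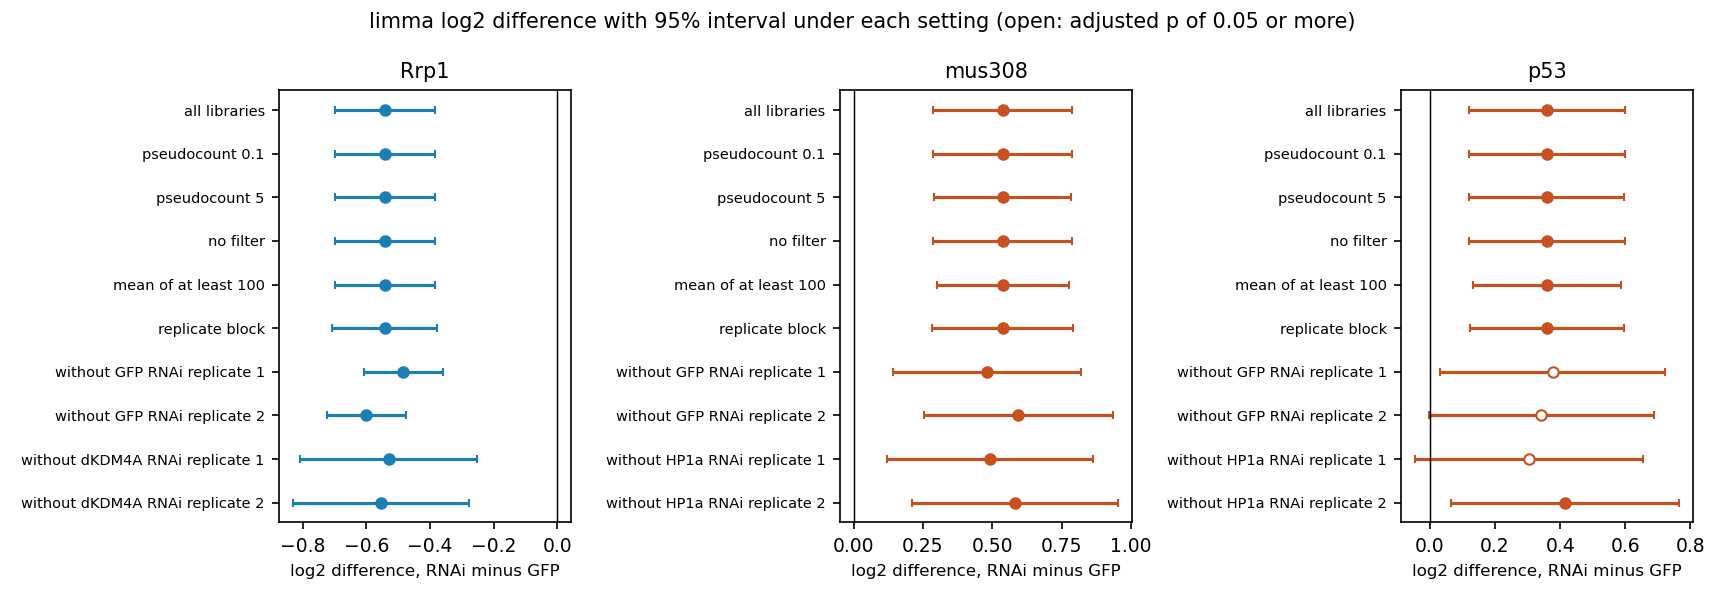
Limma log2 difference between RNAi and GFP (horizontal axes) with its 95% interval for Rrp1, mus308 and p53 under each setting (rows); open points have an adjusted p of 0.05 or more. Rrp1 and mus308 stay past the threshold in every row, from -0.60 to -0.48 and from 0.48 to 0.59, and p53 misses it in the 3 rows without GFP RNAi replicate 1, GFP RNAi replicate 2 or HP1a RNAi replicate 1.

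The genes whose libraries varied most like each member were found by the Euclidean distance of log2 values, relative to the GFP mean, over the 4 libraries of a table. For Rrp1 these were CG12206 (distance 0.0852), Glg1 (0.116) and wun2 (0.122), compared with a median distance of 1.29 to all other rows. For mus308 they were the LTR retrotransposon BATUMI_I (0.0261), the pigmentation gene e (0.0427) and CG32021 (0.0689), with a median of 0.944. For p53 they were grsm (0.0428), CG2930 (0.0522) and the ferritin heavy chain gene Fer1HCH (0.0737), with a median of 0.927. These distances describe 4 libraries each and carry no test, and the nearest rows lie below the median by selection.

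Markers of cell types were looked up in the same tables. Of 12 haemocyte markers, 2 were listed as higher in the libraries labelled dKDM4A RNAi, Pxn (2.04-fold) and NimC1 (1.29-fold), where 0.876% of all features tested were higher. Their summed level was 122497 to 161530 normalized counts in GFP RNAi and 273431 to 301215 in the RNAi libraries, and nearly all of it was Pxn, with a mean of 211192 against 3476 for NimC1. In HP1a RNAi 3 of 12 were higher, Pxn (2.26-fold), drpr (1.46-fold) and lz (15.9 and 12.5 normalized counts in GFP RNAi against 34.7 and 84.7), where 4.18% of all features tested were higher. Their sum went from between 153178 and 199086 to between 353489 and 423388, again mostly Pxn, with a mean of 267213 against 15036 for drpr and 37.0 for lz. Of 6 germline markers 3 were higher in HP1a RNAi, zpg (1.34-fold), osk (2.63-fold) and vas (5.06-fold). Summed, they had 590.4 to 592 normalized counts in GFP RNAi against 915 to 932 in HP1a RNAi. Most of that sum was zpg, with a mean of 619 against 76.5 for osk and 62.2 for vas. In GFP RNAi vas had only 21.5 and 19.5 normalized counts. Of 7 muscle markers bt was lower (848 to 932 against 269 to 331), where 2.28% of all features tested were lower. Neuronal markers had 0 of 6 listed in either table. No listed marker was at 0 in a whole group, and the part of these markers in the values of Rrp1, mus308 and p53 was not tested.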

How the data were processed

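Libraries came from oligo-dT purified RNA of S2 cells (25 degrees, 10% serum), per the labels' protocols. TopHat, Bowtie and DESeq2 are named, with no version, in the submitters' processing notes. Neither the build nor the strand setting was given in the sources used here. File positions equalled BDGP6 (dm6) for 81 of 81 and 458 of 461 matched genes. The deposited signal columns hold counts that the authors divided by size factors, per the file headers. These values were whole multiples of 1 read within 0.1 reads for 100% of rows, which gave size factors of 0.717 to 1.26, but too few low values were at hand for a count test. The log2 fold changes, their standard errors, the score and the p-values are the authors', per the file headers. Benjamini-Hochberg ranks gave 7533 and 8287 tested features. The 1 row without values in each file was dropped.

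Limma 3.58.1 (R 4.3.3) was run per table on log2(normalized count + 1) with a minimum mean of 1, and adjusted over the listed rows. It was tested on simulated data. A left-out library leaves a lone library, which is assumed to vary like the others. Alternatives were pseudocounts of 0.1 and 5, no filter, a mean of at least 100, the replicate block, each library left out and an adjusted p below 0.01. Replicate libraries differed beyond sampling noise (chi-square per degree of freedom 12.7 to 61.0). The members and lists were chosen with earlier results of these data known. Named genes were the members, up to 6 listed genes per list, listed neighbours and the 3 nearest rows in likeness. 1 germline marker matched no annotated gene. Other tools were matplotlib 3.10.9, scipy 1.17.1, pandas 2.3.3 and numpy 2.4.6 under Python 3.11.15.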

Additional observations from a re-analysis of the deposited data

How the results depend on the processing

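Rrp1 and mus308 kept their direction and their limma call under all 9 limma alternatives each. p53 kept its direction under all 9 and its call under 6. With single libraries left out, the p53 log2 difference ranged from 0.30 to 0.42 (limma adjusted p from 0.0487 to 0.0885); its deposited log2 fold change of 0.35 did not pass an adjusted p of 0.01. The limma count was 84 to 90 of 90 for the libraries labelled dKDM4A RNAi and fell for HP1a RNAi from 525 to between 334 and 383 with single libraries left out, where fewer samples enter the fit; 344 of the 535 deposited calls had an adjusted p below 0.01. With a replicate block, limma calls numbered 90 and 513 (dKDM4A, HP1a), and p53 (adjusted p = 0.0125), mus308 (0.00334) and Rrp1 (0.00115) kept their calls. Same-numbered libraries deviated together over rows (r = 0.28 and 0.24), but the labels do not say that numbers mark a shared batch or day. Unlisted genes were not analysed here.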
